A study of Homo sapiens with 8 samples.

Results

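The genes described here are AGR2, WFDC2, SLPI, LCN2, SPDEF, MUC1, MUC4, MUC16, CEACAM6 and TFF3, 10 genes of secretory airway epithelium among the 48405 rows of each deposited expression table. They were chosen by name with earlier results of these data known, and a row counted as a gene's own where the gene field of the table held the name. Where several rows did, the row to use was selected on its mean over all 8 libraries. Each of the 10 names stood in 1 row only, so no measured value decided a row. The HCC4006 values of AGR2 and MUC1 were already in view, so the tests of those values are not independent support.

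HCC4006 and HCC827 are human lung adenocarcinoma cell lines with activating mutations of the growth factor receptor gene EGFR. For each line there was a control culture with the solvent DMSO and a culture that had become able to grow in 3 µM gefitinib, an inhibitor of the EGFR kinase. All 4 groups were grown in RPMI-1640 with 10% fetal bovine serum, and each had 2 libraries of polyadenylated RNA, called A and B after the column names. The question of the series, per its title, is how cells are reprogrammed when they become resistant to an EGFR inhibitor. Whether a resistant culture is 1 clone or many is not given in the sources used here, resistance and presence of the drug cannot be told apart, and in bulk RNA neither can fewer expressing cells and less RNA per cell. The labels do not tell whether libraries of the same group are separate cultures, so p-values cover only the spread between the libraries at hand, possibly a technical one.

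Airway lining is kept moist and defended by secretory cells, which release mucins and small proteins that bind microbes or block proteases. The transcription factor SPDEF drives the goblet cell program, and AGR2 is a protein of the endoplasmic reticulum that helps mucins and other disulfide-rich proteins to fold. WFDC2 and SLPI are small secreted proteins of the whey acidic protein family, LCN2 binds bacterial iron carriers, MUC1, MUC4 and MUC16 are mucins held in the cell membrane, CEACAM6 is a membrane-anchored adhesion protein, and TFF3 is a secreted trefoil peptide that goes with mucus. Lung adenocarcinomas often keep part of this program.

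Values are FPKM, read fragments divided by transcript length and library size, so levels can be set beside each other between genes. A change is the mean log2(FPKM + 0.5) of the resistant libraries minus that of the DMSO libraries, a scale that understates changes of low genes, and a gene was called at a Benjamini-Hochberg adjusted p below 0.05 over all rows of a limma fit. Between 17406 and 19333 rows lay above 0 in a library, and the depth behind the values is unknown. Exact zeros are frequent and can be failed estimates: of 8699 rows at 50 FPKM or more in both HCC4006 DMSO libraries, 59 (0.678%) had 0 in both resistant libraries, and 629 of 9680 rows that were as high in the resistant libraries had 0 in both DMSO libraries. In HCC827 it was 92 of 8847 and 541 of 8921. A group listed at 0 is therefore given no fold change.

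The resistant cultures of the 2 lines differed from their DMSO controls in different ways. In resistant HCC4006, AGR2 fell by 9.31, WFDC2 by 6.23 and SPDEF by 1.98 on the log2 scale, while SLPI and the row that holds MUC1 were listed at 0. In resistant HCC827, WFDC2 rose by 5.59, CEACAM6 was measured in both libraries after being listed at 0 in both DMSO libraries, and AGR2 and SPDEF were not called. WFDC2, the gene for an antiprotease-like secreted protein, thus moved in opposite directions, and the difference of its changes, 11.82 ± 0.69 (SE) on the log2 scale, was called in limma (adjusted p = 0.000105, n = 2 libraries in each of 4 groups). Among 14642 rows above 0 in all 8 libraries this was the most positive of all differences between the lines, and that of AGR2 was next.

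**Figure D1:**
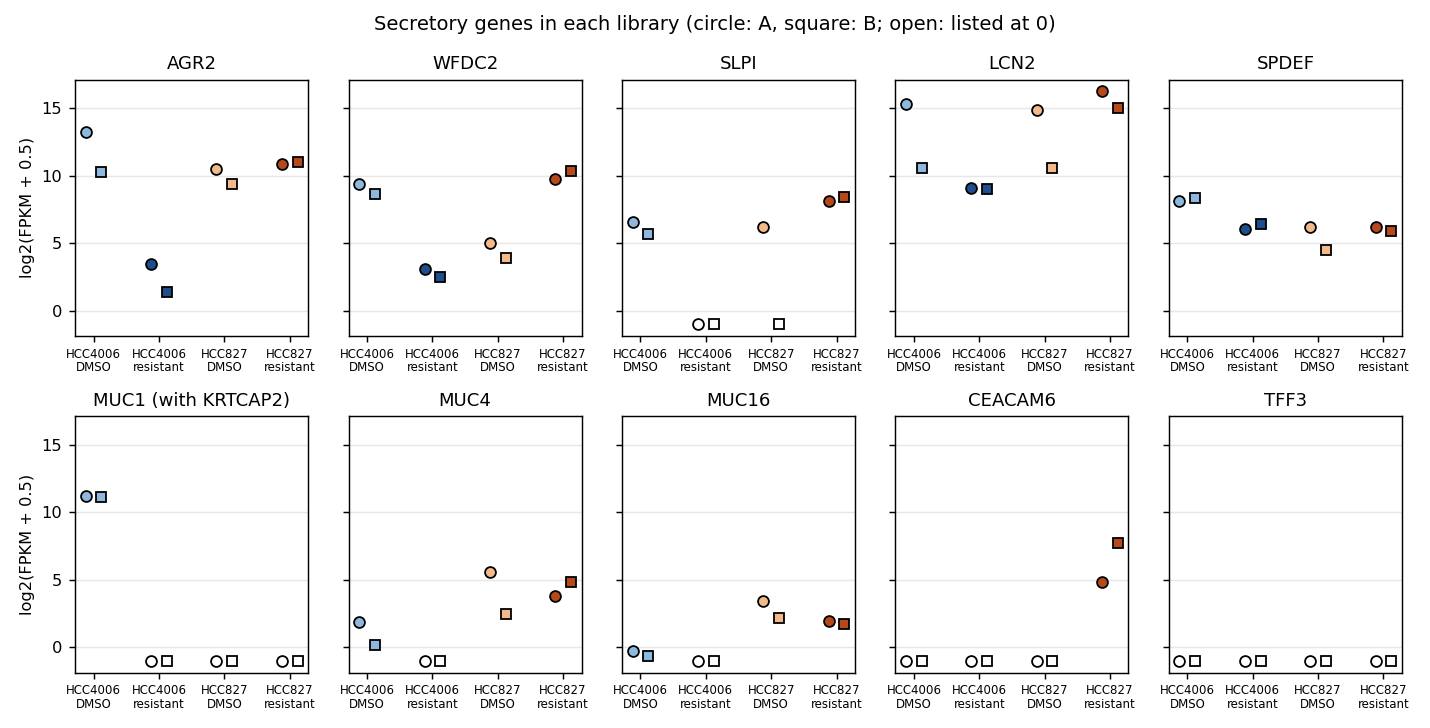
Level of each of the 10 genes, as log2(FPKM + 0.5), in every library of the 4 groups. Circles are A libraries, squares are B libraries, and open symbols are values listed at 0. AGR2 and WFDC2 sit lowest in the resistant HCC4006 libraries, at 10.7 and 2.10 FPKM and at 7.89 and 5.22 FPKM, and the MUC1 row is above 0 in the HCC4006 DMSO libraries alone.

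Sequences just before the transcription start are shown for AGR2, WFDC2 and LCN2, because these are the 3 genes with the most positive differences between the lines among those members above 0 in every library. They come from RefSeq, build GRCh38.p14, are written 5′ to 3′ on the gene's own strand, and end 1 base before the start site. Capitals mark matches to CACCTG, the E-box that the ZEB repressors of epithelial genes bind, or to a form of the NF-kB motif, GGGA and CC with any 4 bases between them, on either strand. The AGR2 window is chr7:16805000-16805249 on the minus strand, the WFDC2 window chr20:45469503-45469752 on the plus strand, and the LCN2 window chr9:128149203-128149452 on the plus strand.
AGR2: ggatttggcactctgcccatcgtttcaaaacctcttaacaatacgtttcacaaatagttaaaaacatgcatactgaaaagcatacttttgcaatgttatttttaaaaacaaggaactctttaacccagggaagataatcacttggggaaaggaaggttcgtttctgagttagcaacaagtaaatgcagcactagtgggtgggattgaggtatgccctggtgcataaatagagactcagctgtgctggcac
WFDC2: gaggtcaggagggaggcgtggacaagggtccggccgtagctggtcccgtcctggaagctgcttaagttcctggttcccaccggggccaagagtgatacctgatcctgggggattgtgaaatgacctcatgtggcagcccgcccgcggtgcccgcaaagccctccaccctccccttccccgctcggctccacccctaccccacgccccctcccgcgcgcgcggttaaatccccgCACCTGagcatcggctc
LCN2: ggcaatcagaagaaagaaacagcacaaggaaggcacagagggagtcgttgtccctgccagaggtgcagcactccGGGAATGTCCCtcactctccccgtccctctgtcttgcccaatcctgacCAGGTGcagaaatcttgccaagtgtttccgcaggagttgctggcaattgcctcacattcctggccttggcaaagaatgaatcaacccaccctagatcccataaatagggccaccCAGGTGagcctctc

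CACCTG or its reverse complement lay at −17 to −12 in the WFDC2 window, counted from the start site, and at −128 to −123 and −14 to −9 in the LCN2 window. The NF-kB form lay at −176 to −167 in the LCN2 window, overlapped by a match on the other strand at −175 to −166. The AGR2 window held neither motif, and it was also the poorest of the 3 in G and C, with 40.4% against 67.2% for WFDC2, 54.8% for LCN2 and a median of 58.0% over 35116 windows. Of all windows of the same length, 17.5% held CACCTG and 22.6% held the NF-kB form. Among the 8 genes with a window in the table, MUC1 and MUC16 also held CACCTG, MUC16 also held the NF-kB form, and TATAAA, the TATA box, stood in CEACAM6 and MUC1 and in 10.7% of all windows. The forkhead motif GTAAACA (2.98% of windows) and the ETS motif CCGGAA (14.5%) were in none of the 10 windows of these 8 genes. A match describes the letters and is not a bound site.

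SPDEF lies on chromosome 6 at 34505578 to 34524091 (hg19, as all gene positions from the tables). It measured 278 and 329 FPKM in the HCC4006 DMSO libraries against 66.6 and 86.9 in the resistant ones, so all DMSO values lay above all resistant values. The change was −1.98 ± 0.25 (SE; limma adjusted p = 0.0235). It was not called over rows above 0 (limma adjusted p = 0.0729), in 1 fit over all 8 libraries (0.0750) or without any 1 library (0.0734 to 0.249). In HCC827 it measured 71.1 and 22.6 FPKM in DMSO and 73.2 and 60.6 in the resistant culture, groups that overlapped, with a change of 0.72 ± 0.62 (limma adjusted p = 0.578). The resistant HCC4006 values were thus of the size of 3 of the 4 HCC827 values and above that of DMSO library B, although levels across the tables depend on how each was scaled. The difference of the changes, 2.71 ± 0.74, was not called (limma adjusted p = 0.0737). It was called with quantile normalization (limma adjusted p = 0.0440), without DMSO library A of HCC827 (0.00763) and without both DMSO A libraries (0.0254).

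Of 23 other genes tested in HCC4006 from a list of regulators and sensors of secretory cells, 3 fell, beside 2.98% of all 19881 rows. The list also counts SPINK1, which encodes a secreted protease inhibitor and is neither a regulator nor a sensor. The median change of the 23 was −0.41 beside −0.01 over all rows. FOXA3, a forkhead factor of goblet cells, measured 48.8 and 43.1 FPKM in DMSO and 9.63 and 8.12 in the resistant libraries (−2.31, limma adjusted p = 0.0141). ELF3, an epithelial ETS factor whose row also names RP11-510N19.5, measured 2544 and 1629 in DMSO and 544 and 588 when resistant (−1.85, limma adjusted p = 0.0448). KLF5, a Krüppel-like factor of airway and gut lining, went from 367 and 447 to 152 and 115 (−1.61, limma adjusted p = 0.0427). Over rows above 0 these 3 falls were not called (limma adjusted p of 0.0750 for FOXA3, 0.0895 for ELF3 and 0.0944 for KLF5). In HCC827 the median change over the 21 tested was 0.25. For the difference, 3 of 23 were called with HCC827 above HCC4006 and 1 below, beside 6.27% and 5.82% of all rows. The changes of ELF3 (difference 2.47, limma adjusted p = 0.0444), KLF5 (1.52, limma adjusted p = 0.0347) and KLF4 (−2.53, limma adjusted p = 0.0137), another Krüppel-like factor, differed between the lines. FOXA3 was called too, but it was listed at 0 in all HCC827 libraries, so its difference is the fall in HCC4006 alone. Over rows above 0 in all 8 libraries the difference of KLF4 was called (limma adjusted p = 0.0484) and those of ELF3 (0.0797) and KLF5 (0.104) were not.

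AGR2 lies on chromosome 7 at 16831434 to 16844704. It measured 9534 and 1219 FPKM in the HCC4006 DMSO libraries against 10.7 and 2.10 FPKM after resistance. Its rank from the highest row went from 60 and 835 to 14267 and 17345, and the groups did not overlap. The change of −9.31 ± 1.34 (SE) was called in limma (adjusted p = 0.0347) and was the largest fall among the 16484 rows above 0 in all 4 libraries. Fitted over those rows alone it was not called (limma adjusted p = 0.0657), nor was it in any fit that left out 1 of the 4 libraries (limma adjusted p from 0.0669 to 0.437).

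In HCC827, AGR2 stayed among the abundant transcripts. It measured 1414 and 657 FPKM in DMSO and 1809.6 and 2084 FPKM in the resistant libraries, at ranks between 440 and 1499. Both resistant values lay above both DMSO values, but the change of 1.01 ± 0.46 was not called (limma adjusted p = 0.349). The difference of the changes between the lines was 10.32 ± 1.56 and was called (limma adjusted p = 0.00806, and 0.0185 over rows above 0 in all 8 libraries). It was not called without resistant library B of HCC4006 (limma adjusted p = 0.0576), without DMSO library B or resistant library B of HCC827 (0.0516 and 0.0573), or without both DMSO A libraries (9.38, limma adjusted p = 0.0527).

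WFDC2, on chromosome 20 at 44098345 to 44110172, measured 677 and 401 FPKM in the HCC4006 DMSO libraries against 7.89 and 5.22 in the resistant ones. The groups lay far apart, and the change of −6.23 ± 0.39 was called (limma adjusted p = 0.00318, and 0.0241 over rows above 0). In HCC827 the order was turned around. It measured 31.4 and 14.1 FPKM in DMSO and 851 and 1267 FPKM when resistant, a rise of 5.59 ± 0.49 (limma adjusted p = 0.00409, and 0.0207 over rows above 0). Resistant HCC827 thus held the highest WFDC2 values of all libraries and resistant HCC4006 the lowest. The fall was not called without either resistant HCC4006 library (limma adjusted p = 0.135 and 0.154) and the rise not without any 1 HCC827 library (limma adjusted p from 0.0788 to 0.196). The difference between the lines was called in every setting run.

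SLPI, the secretory leukocyte protease inhibitor on the same chromosome at 43880879 to 43883205, measured 95.1 and 50.5 FPKM in the HCC4006 DMSO libraries and was listed at 0 in both resistant ones (limma adjusted p = 0.00285), a call lost without either resistant library. In HCC827 it measured 71.3 FPKM in DMSO library A, was listed at 0 in DMSO library B, and measured 279 and 345 FPKM in the resistant libraries. Both resistant values lay above the DMSO values, and the change was not called (limma adjusted p = 0.317). The changes of SLPI in the 2 lines differed (limma adjusted p = 0.0415), but not with a pseudocount of 0.1, with no filter on low values, with a replicate block by letter, or when any HCC4006 library or either resistant HCC827 library was left out. As for WFDC2, the highest values were those of resistant HCC827. PI3, the elafin gene and another antiprotease of this family on chromosome 20, was listed at 0 in all HCC4006 libraries and measured 17.0 and 0 FPKM in HCC827 DMSO and 180.1 and 386 FPKM in resistant HCC827. It is named here after its values were seen.

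LCN2, on chromosome 9 at 130911349 to 130915734, was the most abundant of the 10 genes in 7 of 8 libraries; in HCC4006 DMSO library B the MUC1 row was higher. It measured 39235 and 1499 FPKM in the HCC4006 DMSO libraries against 544 and 522 FPKM in the resistant ones. In HCC827 it measured 30169 and 1493 FPKM in DMSO and 76893 and 32687 FPKM in the resistant libraries, where only 2 and 3 rows were higher. In neither line did the groups overlap. The DMSO libraries of 1 group differed from each other by 26.2-fold and 20.2-fold, and neither change was called: −3.85 ± 1.72 in HCC4006 (limma adjusted p = 0.308) and 2.90 ± 1.53 in HCC827 (limma adjusted p = 0.412). Both sizes rest on the DMSO library they are set against. In HCC4006 the change was −1.49 without DMSO library A (limma adjusted p = 0.0347) and −6.20 without DMSO library B (limma adjusted p = 0.00657), where the lone library is assumed to vary like the resistant ones. In HCC827 it was 5.07 without DMSO library A and 0.73 without DMSO library B, neither of them called (limma adjusted p = 0.209 and 0.806). The difference between the lines, 6.75 ± 2.66, was not called with all libraries (limma adjusted p = 0.183) or without any 1 library, where it lay between 4.39 and 9.10, and was 6.56 without both DMSO A libraries (limma adjusted p = 0.0397).

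**Figure D2:**
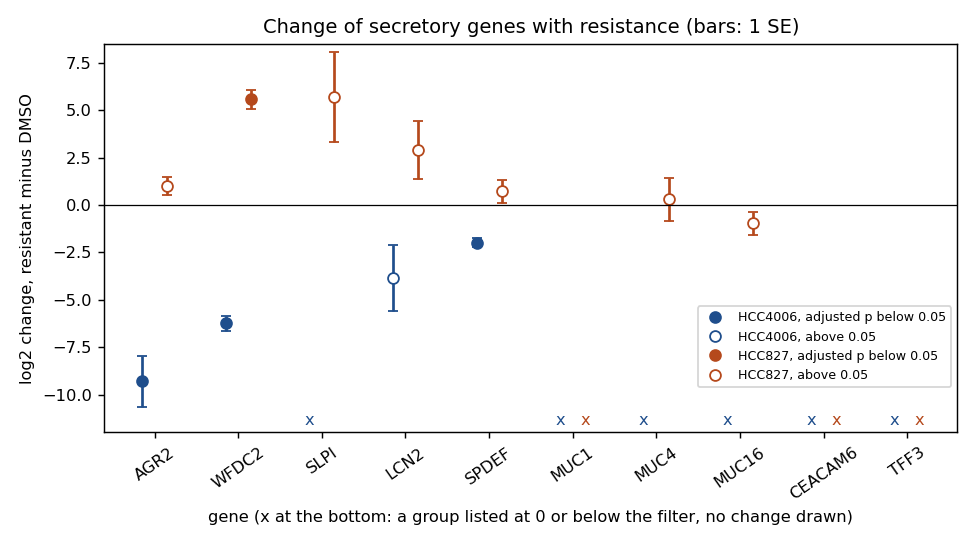
Change of each gene in log2(FPKM + 0.5), resistant minus DMSO, in HCC4006 (blue) and HCC827 (orange), with bars of 1 SE and filled symbols at an adjusted p below 0.05. Crosses mark genes with no drawn change because a group is listed at 0 or the mean lies below the filter. WFDC2 stands at −6.23 in HCC4006 and 5.59 in HCC827.

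MUC1 has no row of its own. Its row also names KRTCAP2, a neighbour on chromosome 1 that encodes a part of the N-glycosylation machinery, and spans 155141883 to 155162707, so its values cannot be assigned to 1 gene. The row measured 2387 and 2250.3 FPKM in the HCC4006 DMSO libraries and was listed at 0 in both resistant HCC4006 libraries and in all 4 HCC827 libraries. The fall in HCC4006 was called (limma adjusted p = 0.000483), and so was the difference between the lines (limma adjusted p = 1.97e-05), which here sets a change against a line listed at 0 throughout. TRIM46, a row on the same locus, followed the same split, with 17.4 and 27.5 FPKM in the HCC4006 DMSO libraries and 0 in the other 6. Whether these zeros are failed estimates of the locus was not tested.

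MUC4, on chromosome 3 at 195473635 to 195539148, was low in HCC4006, with 3.15 and 0.613 FPKM in DMSO and 0 in the resistant libraries (limma adjusted p = 0.258). In HCC827 it measured 46.4 and 5.11 FPKM in DMSO and 13.6 and 27.8 FPKM when resistant, so the resistant values lay inside the DMSO range (0.30 ± 1.12, limma adjusted p = 0.917). MUC16, which carries the CA125 antigen and lies on chromosome 19 at 9038077 to 9091814, measured 0.317 and 0.133 FPKM in HCC4006 DMSO, below the filter of a mean of 0.5 FPKM, and 0 when resistant. In HCC827 it measured 10.1 and 4.08 FPKM in DMSO and 3.33 and 2.82 FPKM when resistant, lower in both but not called (−0.96 ± 0.59, limma adjusted p = 0.476). The membrane mucins MUC4 and MUC16 were thus both higher in HCC827 than in HCC4006 in every pair of DMSO libraries as the tables stand, with no test across the tables.

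Among the other mucin genes, 14 were found and 5 were tested in HCC4006. OVGP1, a mucin-like glycoprotein of the oviduct, measured 19.2 and 8.74 FPKM in DMSO and 0 when resistant, and MUC12, a membrane mucin of the gut, was listed at 0 in DMSO and measured 11.2 and 11.3 when resistant. Both were called (limma adjusted p = 0.0179 and 0.00660), and each passed the filter through 1 group alone and so could move only 1 way. Of all rows, 2.98% were called lower in HCC4006 and 6.37% higher. In HCC827 none of 4 tested was called at an adjusted p below 0.05 in limma, beside 1.67% of all rows called lower and 5.13% higher. Of the 4 mucins, the gel-forming airway mucin MUC5B measured 134 and 16.6 FPKM in DMSO and 217 and 326 when resistant (limma adjusted p = 0.316). The membrane mucin MUC13 measured 335 and 146 in DMSO and 33.4 and 48.3 when resistant (limma adjusted p = 0.0794). These 2 genes, named after their values were seen, were listed at 0 in all HCC4006 libraries.

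Enzymes that build the O-linked sugar chains of mucins moved both ways. Of 26 tested in HCC4006, 6 fell and 2 rose, beside 2.98% and 6.37% of all rows. Of these calls, 3 had a group listed at 0 and so could move only 1 way. The median change of the 26 was 0.10. B3GNT3, which extends core chains, measured 123 and 196 FPKM in DMSO and 20.2 and 22.2 when resistant (−2.85, limma adjusted p = 0.0167). GALNT12 and GALNT3, which attach the first sugar, fell by 2.34 (limma adjusted p = 0.0149) and 2.18 (limma adjusted p = 0.0291), and GALNT14, of the same family, rose by 2.46 (limma adjusted p = 0.0272). FUT3, the Lewis fucosyltransferase, measured 257 and 76.3 in DMSO and 0 when resistant, and the row of GALNT10, shared with MFAP3, was listed at 0 in DMSO and measured 892 and 931 when resistant. Over rows above 0, none of these enzymes was called in HCC4006 in limma (adjusted p of 0.0639 for B3GNT3, 0.0686 for GALNT12 and 0.0796 for GALNT14).

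In HCC827, 0 of 24 enzymes fell and 2 rose, beside 1.67% and 5.13% of all rows. The median change of the 24 was 0.32 beside −0.04 over all rows. GALNT12 measured 58.0 and 47.7 FPKM in DMSO and 239 and 252 when resistant, a rise of 2.21 (limma adjusted p = 0.0159, and 0.0977 over rows above 0). FUT8, which adds core fucose to N-linked chains rather than to mucin-type chains, was listed at 0 in DMSO and measured 438 and 483 when resistant. FUT8 passed the filter through its resistant values alone and so could only rise. In HCC4006 GALNT12 had gone from 117 and 148 to 28.1 and 23.5, so it shared with WFDC2 a called change in opposite directions, and the difference of 4.55 was called (limma adjusted p = 0.000300, and 0.00462 over rows above 0). B3GNT3 (2.80, limma adjusted p = 0.0137, and 0.0457 over rows above 0) and GALNT3 (2.18, limma adjusted p = 0.0197) also differed between the lines, though GALNT3 was not called over rows above 0 (limma adjusted p = 0.0599).

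CEACAM6, on chromosome 19, was listed at 0 in all HCC4006 libraries and both HCC827 DMSO libraries and measured 27.9 and 208 FPKM in resistant HCC827. It was called higher there (limma adjusted p = 0.0229), and the difference between the lines was called too (limma adjusted p = 0.0141), although its level in resistant library A was 0.134 times that in library B. The rise was not called with a pseudocount of 5 or without either HCC827 DMSO library. The difference was not called with a pseudocount of 5, without DMSO library A or either resistant library of HCC4006, without either HCC827 DMSO library, or without both DMSO A libraries. Its locus, 42212503 to 42327267, also holds the rows of CEACAM3, a receptor of granulocytes, and CEACAM5, the carcinoembryonic antigen. These measured 33.1 and 47.5 FPKM and 8.46 and 16.0 FPKM in resistant HCC827 and 0 in the other 6 libraries. The 3 rows of the locus were thus above 0 in the same libraries, and whether the zeros are failed estimates of the locus was not tested. Reads of these close relatives may be split between the rows. CEACAM1, a relative at another locus, measured 57.6 and 25.9 FPKM in HCC4006 DMSO and 0 when resistant, and 160.2 and 95.2 in HCC827 DMSO and 54.5 and 56.8 when resistant. TFF3, on chromosome 21 at 43731776 to 43735761, was listed at 0 in all 8 libraries and was not tested. TFF1, another trefoil gene, measured 5.86 and 9.15 FPKM in HCC4006 DMSO and 0 in the other 6 libraries, and AGR3, the closest relative of AGR2, was listed at 0 in all 8. Of 26 relatives found, 2 of 5 tested fell in HCC4006 (TFF1 and CEACAM1), and 2 of 7 rose in HCC827 (CEACAM3 and CEACAM5), beside 2.98% and 5.13% of all rows. All 4 had the other group at 0, so they passed the filter through 1 group and could move only 1 way. CEACAM3 and CEACAM5 share their locus with CEACAM6, so their calls may not be independent.

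Counted over the 10 genes, 7 were tested in HCC4006, where 5 were called lower (AGR2, WFDC2, SLPI, SPDEF and the MUC1 row) and 0 higher. Of these 5, AGR2 and the MUC1 row had HCC4006 values already in view, so they give the count no independent support. Of all 19881 rows, 2.98% were called lower and 6.37% higher. SLPI, MUC1 and MUC4 passed the filter there through their DMSO values alone and so could only fall. All 7 had resistant libraries below the DMSO libraries, a property of 26.5% of all rows, with 26.6% the other way around. Over rows above 0 in all 4 libraries, 0.431% of 16484 rows were called lower and 0.103% higher, and WFDC2 was the 1 member called.

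In HCC827, 8 were tested, and WFDC2 and CEACAM6 were called higher and 0 lower, beside 5.13% and 1.67% of 19324 rows. CEACAM6 passed the filter through its resistant values alone. Resistant libraries lay above the DMSO libraries for 5 genes (AGR2, WFDC2, SLPI, LCN2 and CEACAM6) and below for MUC16, beside 24.3% and 24.7% of all rows. Over rows above 0, where 0.0628% of 15917 rows were called higher and 0.0565% lower, WFDC2 was again the 1 member called. With 2 libraries a group, a two-sided exact permutation test of 1 gene cannot give a p below 0.333, so the calls rest on the spread that limma shares between rows.

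The difference of the changes was tested for 9 members, and 5 were called with HCC827 above HCC4006 (AGR2, WFDC2, SLPI, the MUC1 row and CEACAM6) and 0 the other way, beside 6.27% and 5.82% of 20685 rows. The HCC4006 values of AGR2 and the MUC1 row were already in view, so the calls of these 2 are not independent support. The MUC1 row and CEACAM6 had 3 of 4 groups at 0 and passed the filter through the other, so their differences could only be positive. Over rows above 0 in all 8 libraries, 0.97% of 14642 rows were called with HCC827 above and 0.478% below, and AGR2 and WFDC2 were the members called. The 4 members in that fit had positive differences, at ranks 1 (WFDC2), 2 (AGR2), 12 (LCN2) and 316 (SPDEF).

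**Figure D3:**
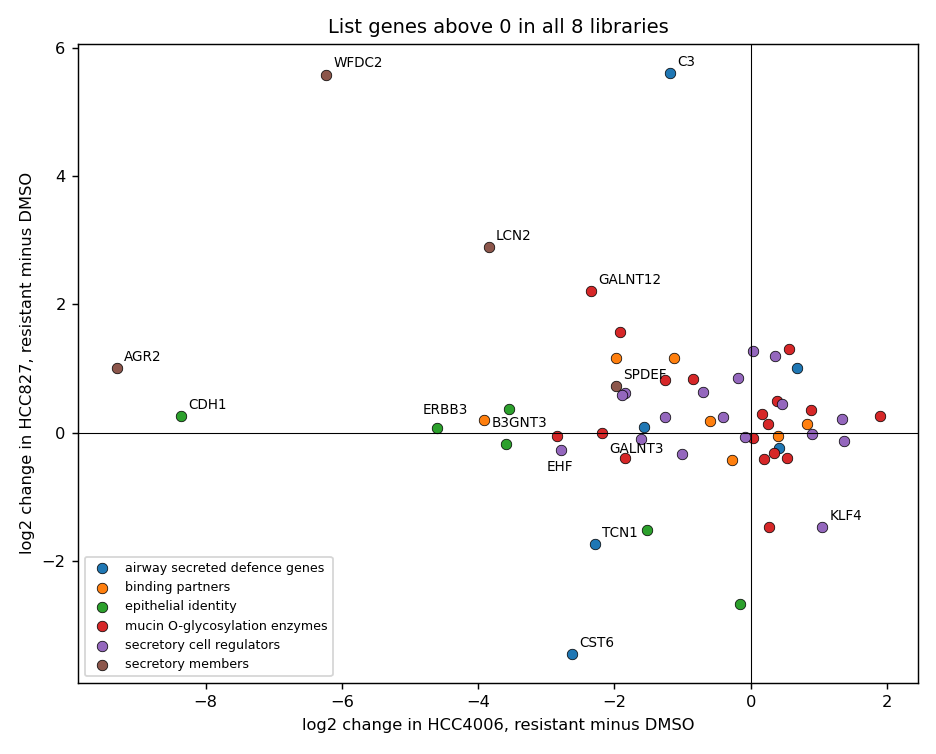
Change in HCC827 (vertical) against change in HCC4006 (horizontal), in log2(FPKM + 0.5), for genes of 6 lists above 0 in all 8 libraries; the names shown were picked by position in the plot. WFDC2, LCN2 and GALNT12 lie in the quadrant of lower values in HCC4006 and higher values in HCC827, and AGR2 lies farthest to the left at −9.31.

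Other secreted defence genes of the airway gave 1 call in HCC4006 and 2 in HCC827. Of 16 tested in HCC4006, 0 fell and 1 rose: SERPINA1, the alpha-1-antitrypsin gene, listed at 0 in DMSO and at 812 and 911 FPKM when resistant. Their median change was −2.23. Of 17 tested in HCC827, 2 rose, with a median of 1.26. They were CP, the ceruloplasmin gene, at 0 in DMSO and 106 and 35.1 FPKM when resistant, and DEFB1, a beta-defensin gene, at 0 in DMSO and 19.1 and 27.1 when resistant. Beside these counts, 6.37% of all rows were called higher in HCC4006 and 5.13% in HCC827. SERPINA1, CP and DEFB1 passed the filter through their resistant values alone and so could only rise.

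In both lines DMSO library A held more RNA of most of these defence genes than library B. Of 15 with a mean of at least 0.5 FPKM, 12 were higher in A in HCC4006 (median log2 ratio 3.48) and 14 in HCC827 (3.71), beside 53.2% and 59.7% of all rows (medians 0.07 and 0.14). Other lists leaned to A as well, with medians of at most 1.74. In HCC827 these were 5 of 5 family relatives, 21 of 24 sugar-chain enzymes and 16 of 20 regulators. In HCC4006 the counts were 4 of 5, 14 of 25 and 15 of 21. C3, the central complement gene, measured 6638 and 228 FPKM in the HCC4006 DMSO libraries. PIGR, which carries immunoglobulin A across the epithelium, measured 615 and 1.33 there, and S100A9, a subunit of calprotectin, measured 11016 and 13.0 FPKM in the HCC827 DMSO libraries; these 3 were named after their values were seen. Of the 10 genes, 6 of 7 were higher in library A in HCC4006 (median 0.91) and 7 of 7 in HCC827 (median 1.63). The LCN2 ratio lay at percentile 99.7 and 99.6 of all rows above 0 in both libraries, by size, and that of AGR2 in HCC4006 DMSO, 7.82-fold, at percentile 98.02. In the resistant groups 5 of 11 defence genes in HCC4006 and 9 of 15 in HCC827 were higher in A, beside 48.3% and 51.3% of all rows. What sets the DMSO A libraries apart was not tested.

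**Figure D4:**
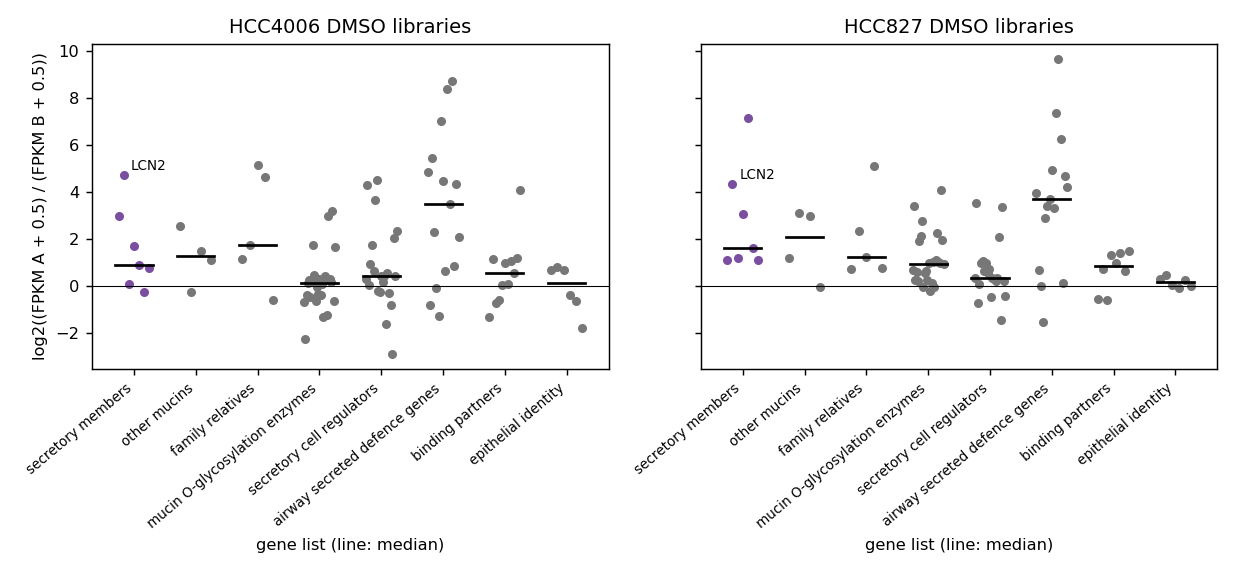
Log2 ratio of DMSO library A to library B, with 0.5 FPKM added to each, for the genes of 8 lists in HCC4006 (left) and HCC827 (right); the horizontal bars are medians. Airway secreted defence genes have medians of 3.48 and 3.71, and LCN2 is labelled among the 10 secretory genes.

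The fall in HCC4006 stood beside lower epithelial markers. Of 6 found, EPCAM, CDH1, KRT19 and CLDN7 fell, with changes of −3.60, −8.36, −3.55 and −4.60 (limma adjusted p from 0.000781 to 0.0105), and KRT8 and EGFR were not called. Of all rows, 2.98% were called lower in that fit. The summed level of the 6 was 12703 and 17644 FPKM in the HCC4006 DMSO libraries against 2600.5 and 2441 FPKM in the resistant ones. In HCC827, where none of the 6 was called in limma, it was 22201 and 20664 in DMSO and 12810 (A) and 18296 (B) when resistant. There KRT8 went from 5187 and 5157 FPKM to 1175 and 2743, and EGFR from 5462 and 5246 to 1639 and 424. The DMSO and resistant values of EPCAM, CDH1, KRT19 and CLDN7 overlapped in that line. All 6 were above 0 in every library. The part of the HCC4006 marker shift in the fall of the secretory genes was not tested.

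Markers of ciliated and club cells were at or near 0 in the tables, while the alveolar type 2 markers NAPSA and SFTPB were above 0 in all 4 HCC827 libraries. TEKT1 and TPPP3 (ciliated cells), SCGB1A1 (club cells) and SFTPC (alveolar type 2 cells) were listed at 0 in all 8 libraries. The summed level of the 13 airway and alveolar markers was 107 and 65.5 FPKM in HCC4006 DMSO and 32.4 and 47.5 when resistant, with 1 to 5 of 13 above 0. Most of this was AGER, another alveolar marker, which was above 0 in all 8 libraries. AGER measured 95.6 and 55.7 FPKM in HCC4006 DMSO and 32.4 and 47.2 when resistant. In HCC827 the summed level was 910.2 and 594 in DMSO and 1041 and 2809 when resistant, with 4 to 8 above 0. Nearly all of that was NAPSA, an aspartic protease of alveolar type 2 cells that is used to recognise lung adenocarcinoma. It measured 829 and 540.3 in DMSO and 911 and 2656 when resistant. SFTPB, a surfactant protein gene of the same cells, measured 1.002 and 9.37 FPKM in HCC827 DMSO and 88.1 and 68.5 when resistant (limma adjusted p = 0.0946) and was listed at 0 in HCC4006. PTPRC, CD3E and CDH5, which define blood, T and endothelial cells, were at 0 in all libraries, and the summed level of 11 blood, endothelial and fibroblast markers, mostly CD68, lay between 332 and 1252 FPKM. KRT14, CD79A and PDGFRB of these lists were called in HCC4006, the first and second lower with the resistant group at 0, the last higher, from 2.57 and 0.764 to 21.9 and 26.2 FPKM (limma adjusted p = 0.0793 over rows above 0).

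Some genes encode proteins that the members are known to bind, and KRTCAP2, which shares the row of MUC1, was put in the same list. Of 11 tested in HCC4006, 4 fell: ERBB3, a receptor of the EGFR family (−3.91, limma adjusted p = 0.0295), ERBB2, the receptor that MUC4 binds (−1.13, limma adjusted p = 0.0497), CEACAM1 and the row that holds KRTCAP2 and MUC1, beside 2.98% of all rows. The KRTCAP2 row is that of the member MUC1, and CEACAM1 is also among the family relatives, so both were counted before. CEACAM1 and the KRTCAP2 row could only fall, and over rows above 0 neither ERBB3 (limma adjusted p = 0.0696) nor ERBB2 (0.146) was called. ERBB3 measured 215 and 110 FPKM in DMSO and 6.90 and 13.6 when resistant. In HCC827, 0 of 8 were called in limma. The changes of ERBB3 (4.11, limma adjusted p = 0.0262, and 0.0484 over rows above 0) and ERBB2 (2.30, limma adjusted p = 0.0346, and 0.0735 over rows above 0) differed between the lines, the latter not called over rows above 0. MSLN, the ligand of MUC16, was at most 3.84 FPKM, and SLC22A17, a receptor of LCN2, at most 9.71 FPKM.

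The rows whose pattern was most like that of AGR2 were NACA (r = 0.995), PRSS16 (0.992), STK24 (0.988), ARHGEF5 (0.987) and NACA3P (0.986). Likeness was Pearson's r over the 8 libraries, taken on log2(FPKM + 0.5) minus the row's own mean in each table, among 12062 rows. Level differences between the lines are thus removed. The rows most like WFDC2 were RPS6 (0.995), RP11-864G5.1 (0.991), PPP1R11 (0.990), a row with a clone name (0.990) and GALNT12 (0.989). AGR2 and WFDC2 had an r of 0.803 with each other, SPDEF had 0.813 with AGR2 and 0.829 with WFDC2, and LCN2 0.740 and 0.783. These r describe the changes within each line and the spread of 8 libraries that share their normalization, and size does not enter them. RPS6, a ribosomal protein gene, measured 23781 and 21232 FPKM in HCC4006 DMSO and 11249 and 10220 when resistant. In HCC827 it measured 8240.3 and 7897 in DMSO and 13854 and 15727 when resistant. Within each line it thus moved in the same direction as WFDC2, over a far smaller range. Its highest values were those of HCC4006 DMSO, whereas those of WFDC2 were in resistant HCC827.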

How the data were processed

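Polyadenylated RNA of 8 libraries, 2 in each of 4 groups, was analysed from 2 tables, 1 per cell line. The authors deposited gene-level FPKM, made with TopHat 1.4.1, Cufflinks 1.3.0 and Cuffdiff on hg19 per the submitters' processing notes. Libraries were made with TruSeq RNA v2, which does not mark strand, per the labels' protocols. Which annotation was used is not given in the sources used here. Further scaling is possible, since the median of rows above 0 was as high as 53.6 to 59.0 FPKM. Depth is unknown, so no counting interval can be given. Column letters A and B were not tied to the replicate numbers of the labels. Since the tables may differ in scale, changes were taken within a line.

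From these values, log2(FPKM + 0.5) was fitted in limma 3.58.1 (R 4.3.3, eBayes with trend) over rows with a mean of at least 0.5 FPKM, for each line alone (4 libraries) and as an interaction over all 8. P-values were adjusted by Benjamini-Hochberg over all rows of a fit and called below 0.05. The fit was tested on simulated data. Alternatives were pseudocounts of 0.1 and 5, no filter, a mean of at least 2 FPKM, rows above 0 only, quantile normalization, 1 fit over 8 libraries, a block by letter and each library left out; leaving out both DMSO A libraries was added after seeing the data. All 10 members are named. Of every other list, per line, called genes above 0 in all 4 libraries are named by size, up to 3 each way, with up to 2 called genes that have a group at 0. For AGR2 and WFDC2 the 5 most like rows are named. Members and lists were chosen with earlier results of these data known. The tables held 0 other per-sample columns. KRT18 and PECAM1 were not used because no row on their own chromosome was found under those names. Promoter windows were taken from RefSeq (GRCh38.p14), with 8 of 10 members matched. The result of 1 gene of the regulator list is not reported here.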

Additional observations from a re-analysis of the deposited data

Results flagged for a closer look

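For 5 of the 10 genes the change in HCC827 was called above that in HCC4006 by the test of the difference itself, beside 6.27% of all rows. The test was the interaction in limma with Benjamini-Hochberg adjustment and 2 libraries in each of 4 groups. Over rows above 0 in all 8 libraries, AGR2 and WFDC2 were the members called. The HCC4006 values of AGR2 and the MUC1 row were already in view. For WFDC2 the difference was 11.82 on the log2 scale, with both libraries of each group on the same side in both lines. For AGR2 it was 10.32, a call lost in some of the fits with 1 library left out. SLPI (adjusted p = 0.0415), the row of MUC1 and KRTCAP2 (adjusted p = 1.97e-05) and CEACAM6 (adjusted p = 0.0141) were called with at least 1 group listed at 0, so no size is given for them. For MUC1 the difference is the fall in HCC4006 alone, since HCC827 was at 0 in both groups. For CEACAM6 it rests on the values above 0 in resistant HCC827 alone. Both differences could only be positive, and the zeros may be failed estimates.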

How the results depend on the processing

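With rows above 0 in every library, the rows called went from 1860 to 88 in HCC4006 and from 1314 to 19 in HCC827. For the difference they went from 2501 to 212. The members called went from 5 to 1, 2 to 1 and 5 to 2. These fits test fewer rows. Of the main calls in HCC4006, 332 of 593 lower and 167 of 1267 higher were of rows above 0 in every library. In HCC827 it was 88 of 323 and 71 of 991, and for the difference 247 of 1204 and 469 of 1297. One fit over all 8 libraries called 3 members in HCC4006, and a pseudocount of 5 called 1 in HCC827. Leaving out 1 library gave 1394 to 3565 rows and 1 to 5 members in HCC4006 (3565 rows without DMSO B, and 1 member, MUC1, without either resistant library). In HCC827 it gave 0 to 1520 rows and 0 to 1 members, with 0 without DMSO A or DMSO B, where 2768 and 2574 rows had an unadjusted p below 0.05 in limma. For the difference it gave 1666 to 3857 rows and 2 to 5 members. Where 1 library is left in a group, it is assumed to vary like the others. A change called in neither the main fit nor the alternative counts here as kept. So does every summing of a member's rows, which could alter nothing. Over all settings, changes of members with no group at 0 kept direction and call status 179 times, lost the call 21 times and gained it 6 times. They reversed 4 times, none of them called: MUC4 in HCC827 with quantile normalization (−0.091) and when 1 library was left out (−1.23 without DMSO B, −0.21 without resistant B, range −1.23 to 1.83), and SPDEF in HCC827 without DMSO B (−0.092, range −0.092 to 1.54); the causes were not tested. Quantile normalization moved the median change of all rows by −0.18 in HCC4006 and −0.20 in HCC827, and of the other called list genes above 0 it lost ELF3 in HCC4006. Depth is unknown, so which zeros are low counts cannot be told. Summing the rows of a member changed nothing, as each had 1 row.

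The column letters are not said to pair libraries. With a replicate block by letter the rows called were 1400, 1485 and 1687 and the members 5, 2 and 4 (HCC4006, HCC827, difference), with SLPI lost from the difference. Deviations of same-lettered libraries correlated at −0.08 between the HCC4006 groups and 0.21 between the HCC827 groups, across 14804 rows. Between the lines, HCC4006 DMSO correlated at 0.33 with HCC827 DMSO and 0.31 with resistant HCC827, and resistant HCC4006 at −0.098 and 0.0026.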
